A study of Mus musculus with 16 samples.

Results

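SIRT6 is a nuclear sirtuin, an NAD-dependent enzyme that removes acetyl groups from histone H3 and in other cell types is known to restrain NF-kB and hypoxia-inducible gene programs and to take part in DNA repair. The genotype effect examined here is the one common to both disc compartments. These are the nucleus pulposus (NP), a soft core that derives from the notochord, and the annulus fibrosus (AF), a ring of collagen lamellae around it. All 16 arrays of the 16 in the series entered it: 8 from Sirt6 cKO mice (4 NP and 4 AF), against 8 from fl/fl mice (4 NP and 4 AF). A gene that differs alike in NP and AF gains from all 16 arrays, whereas a gene that differs in 1 tissue is diluted by the other.

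Sirt6 cKO mice carried floxed Sirt6 alleles and the AcanCreERT2 driver, a tamoxifen-inducible Cre placed under the aggrecan gene, which acts in NP, AF and endplate cells. The fl/fl littermates carried the floxed alleles without the driver. All mice were male, of a mixed C57BL/6J, 129S and FVB/NJ background, and received tamoxifen as adults, and discs were taken at 24 months of age. Each array held NP or AF pooled from lumbar and caudal discs of 1 animal, so that the 16 arrays came from 8 mice, 4 per genotype. The labels do not say which NP and AF arrays share a mouse, and arrays were therefore treated as separate samples, so that p-values may be too small where mice were shared. In pooled tissue, fewer cells of a type and less RNA per cell cannot be told apart.

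Signals are log2 values per gene, and most of them lay close to background. Of 16665 named genes tested, 2742 (16.5%) were at least 2-fold over the background control probe sets on 8 or more arrays, a number that a gene can reach through the arrays of 1 genotype alone. Array medians were 4.41 to 4.49 for NP, and for AF 4.93 to 5.0. Spread between arrays of a group was wider in AF (median SD 0.518) than in NP (0.399). Some arrays stood apart. The mean signal of 12 nucleus pulposus and notochord markers was 7.33, 4.97, 7.28 and 5.01 on cKO NP arrays, against 5.85, 5.53, 5.33 and 6.03 on fl/fl NP arrays. In AF the same mean was 4.72, 5.57, 5.05 and 5.79 on cKO AF arrays, against 5.67, 6, 5.71 and 5.79 on fl/fl AF arrays. Arrays 1 and 3 of cKO NP were thus high, arrays 2 and 4 of the same group were low, and the NP and AF tissues overlapped in these markers. The 12 annulus and tendon markers averaged 4.58 to 4.87 on cKO NP arrays, against 4.56 to 4.94 on fl/fl NP arrays. In AF they averaged 4.8 to 5.91 on cKO arrays, against 5.17 to 5.43 on fl/fl arrays. Array 4 of cKO AF had the highest cartilage list mean of all arrays (7.74, against 5.25 to 5.83 on the other cKO AF arrays), and array 1 of cKO AF correlated least with the rest of its group (r = 0.513 across genes). These 4 arrays, cKO NP 1 and 3 and cKO AF 1 and 4, are called the divergent arrays. For a gene with an unadjusted p under 0.05 the difference without them is given where it was over 1.5 times smaller or larger or had the other sign, and likewise the difference without a single array. All 4 were cKO arrays, picked by different measures with the data known, so leaving them out changes 1 genotype only. By correlation with the rest of their group, cKO NP 2 and 4 were lower (r = 0.722 each) than cKO NP 1 and 3 (0.789 and 0.803). A fit without both cKO NP 2 and 4 was not run.

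**Figure D1:**
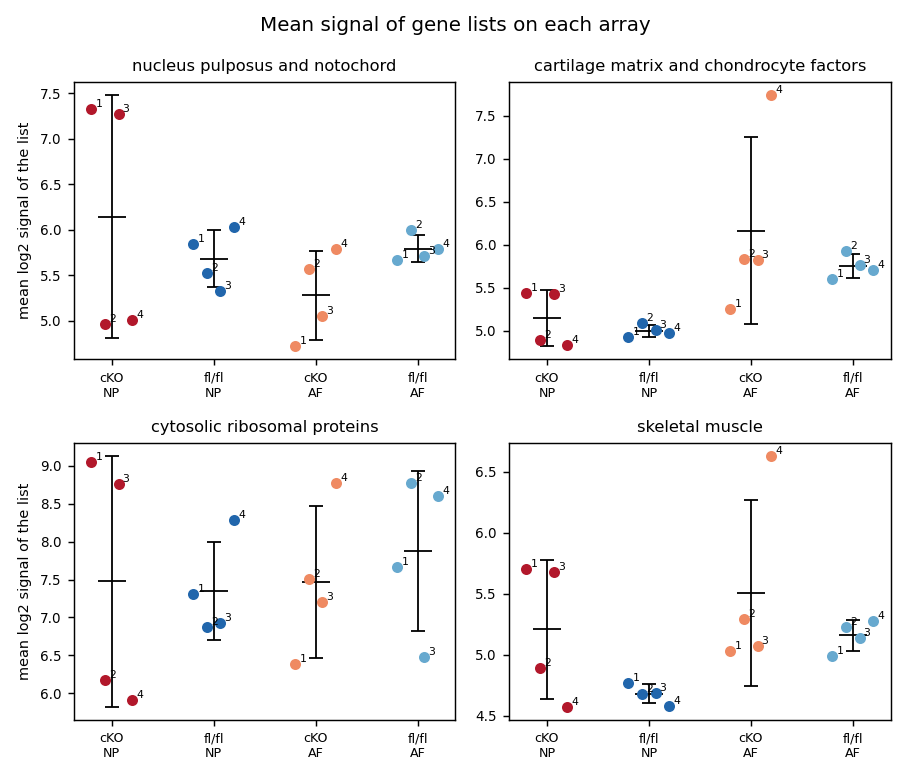
Mean log2 signal (y axis) of 4 gene lists on each array (points, numbered by replicate), for cKO NP, fl/fl NP, cKO AF and fl/fl AF; bars give the group mean and SD of 4 arrays. On the nucleus pulposus and ribosomal lists, cKO NP arrays 1 and 3 lie above cKO NP arrays 2 and 4, and cKO AF array 4 is the highest array on the cartilage and muscle lists.

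Sirt6 itself gave no usable check of the deletion. Its signal was 3.69, 3.71, 3.81 and 4.54 on cKO NP arrays, against 3.74, 3.78, 4.21 and 4.12 on fl/fl NP arrays. In AF, Sirt6 was at 3.39, 4.38, 4.89 and 4.12 on cKO AF arrays, against 4.57, 4.59, 4.49 and 5.13 on fl/fl AF arrays. It was not over background on any of the 16 arrays, and it did not pass the filter on low signal. The mean difference over both tissues, cKO minus fl/fl, was -0.26 on the log2 scale (two-sided exact permutation test within tissues, p = 0.240; the smallest p this design allows is 0.000408). Where the probes lie relative to the deleted exons is not known from the sources used here.

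Which genes differed in the same direction in both tissues? In the limma fit of genotype plus tissue, no gene passed an adjusted p under 0.05 (0% of 16665 genes; the lowest adjusted p was 0.914). Unadjusted p-values under 0.05 were found for 849 genes (5.09%), with 427 (2.56%) higher in cKO and 422 (2.53%) lower. Adding the fold threshold used by the authors, 0.81 on the log2 scale, left 187 genes, 124 (0.744%) higher and 63 (0.378%) lower in cKO discs. The share that was higher, 66.3%, did not hold under every treatment of the arrays. It was 49% after quantile normalization and 44.1% without cKO NP arrays 1 and 3. Leaving out 1 array gave 95 to 220 genes higher, with 207 without cKO NP 2 and 220 without cKO NP 4, and 58 to 111 genes lower, with 111 without fl/fl AF 3. Of these 187 genes, 183 had the same sign in both tissues, beside 51.3% of all genes. A choice by a large mean difference over both tissues favours a shared sign, so the 183 are no measure of sharing. Only 12 of the 187 genes reached an unadjusted p of at most 0.05 in limma in NP and in AF, while 56 did so in NP alone, 88 in AF alone and 31 in neither.

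Asking each tissue separately gave a short list. The p-values of both tissues came from 1 fit with a shared variance, while spread was wider in AF (median SD 0.518) than in NP (0.399). Those of AF may thus be too small and those of NP too large, so the counts do not show a larger effect in AF. An unadjusted p of at most 0.05 was met by 548 genes in NP and by 1184 genes in AF. In both at once and in the same direction it was met by 23 genes, 13 higher (0.078% of all genes tested) and 10 lower (0.06%), and 13 other genes met it in both tissues with opposite signs. How many such genes unrelated tissues would give was not computed, so the count cannot be said to exceed that number. The 23 genes were 4.2% of the NP list, 1.94% of the AF list and 0.138% of all genes tested. None passed after adjustment of the larger p by limma (all adjusted values were 1, the lowest larger p being 0.0115). A difference past the fold threshold in each tissue was found for 10 of the 23 (7 higher and 3 lower). With 1 array left out the counts were 7 (without cKO NP 3) to 21 (without fl/fl AF 3) higher and 6 (without cKO AF 4) to 18 (without fl/fl AF 3) lower, and 20 were higher without cKO AF 3. Fitting each tissue by itself gave 18 genes higher and 8 lower in both tissues, and none passed after adjustment.

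Over all genes the differences in NP and in AF had little in common. Signs were shared by 8549 of 16665 genes (51.3%), 4098 of them higher and 4451 lower in both. Pearson's r between the difference in NP and the difference in AF was 0.0712 across all genes and 0.155 across the 2742 genes over background, where genes are not independent replicates and no test applies. Of the 548 genes at p of at most 0.05 in NP, 307 (56%) had the same sign in AF, and of the 1184 in AF, 628 (53%) had the same sign in NP. The median size of the difference of those NP genes was 0.90 in NP, and in AF it was 0.06 in the same direction. For the AF genes the median was 0.94 in AF and 0.03 in NP. The fold threshold was passed in both tissues by 50 genes higher and 41 lower in both, and by 40 genes with opposite signs.

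**Figure D2:**
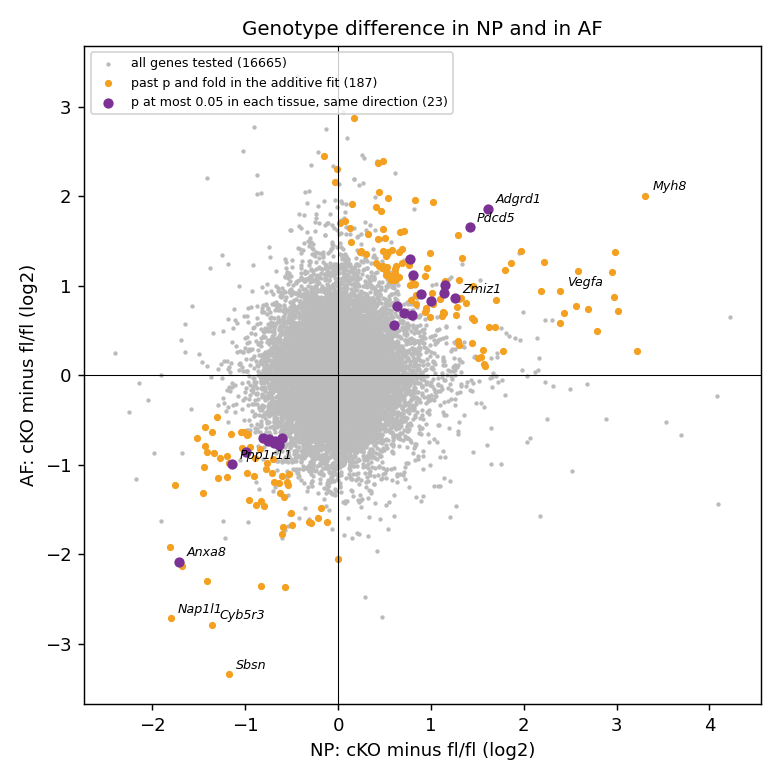
Genotype difference (cKO minus fl/fl, log2) in NP (x axis) and in AF (y axis) for each of 16665 genes (grey), the 187 genes past p and fold in the additive fit (orange) and the 23 genes at an unadjusted p of at most 0.05 in each tissue with the same direction (purple). Grey points form a round cloud with r = 0.0712, and some orange points lie close to an axis, that is, with a difference in 1 tissue.

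Zmiz1, a PIAS-related coactivator of nuclear receptors and p53, had the lowest p of all genes. Its signal was 5.7, 5.59, 6.67 and 5.42 on cKO NP arrays, against 4.57, 4.66, 4.04 and 5.05 on fl/fl NP arrays. In AF, Zmiz1 was at 5.74, 6.35, 5.78 and 6.73 on cKO AF arrays, against 5.33, 5.41, 5.48 and 4.94 on fl/fl AF arrays. Every cKO array lay above every fl/fl array of its tissue. The difference was 1.06 (95% confidence interval 0.58 to 1.55, limma unadjusted p = 0.000181, adjusted p = 0.914), with 1.26 in NP and 0.86 in AF, and the 4 group means were 5.84 ± 0.56 (cKO) and 4.58 ± 0.42 (fl/fl) in NP, and 6.15 ± 0.47 (cKO) and 5.29 ± 0.24 (fl/fl) in AF (SD, n = 4 arrays each, as for the means that follow). Its level was over background on 8 of 16 arrays, which were the 8 cKO arrays.

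Pdcd5, which encodes a small protein linked to apoptosis, had the largest difference among the genes whose genotypes did not overlap in either tissue. Its signal was 8.05, 5.18, 6.58 and 5.24 on cKO NP arrays, against 4.85, 4.59, 4.83 and 5.11 on fl/fl NP arrays. In AF, Pdcd5 was at 7.38, 7.21, 5.97 and 6.03 on cKO AF arrays, against 4.57, 4.92, 4.83 and 5.66 on fl/fl AF arrays. Arrays 1 and 3 of cKO NP and arrays 1 and 2 of cKO AF were the high ones, and the group means were 6.26 ± 1.35 (cKO) and 4.84 ± 0.21 (fl/fl) in NP, and 6.65 ± 0.75 (cKO) and 4.99 ± 0.47 (fl/fl) in AF. The difference was 1.54 ± 0.35 (SE), or 1.42 in NP and 1.65 in AF (unadjusted p = 0.0115 and 0.00417, limma). Without the divergent arrays it was 0.98. Only 6 arrays were over background.

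Defa25 belongs to the alpha-defensins, antimicrobial peptides of intestinal Paneth cells, whose many near-identical copies a probe set may not tell apart. Its signal was 6.22, 7.49, 6.05 and 6.68 on cKO NP arrays, against 5.86, 5.85, 5.52 and 5.99 on fl/fl NP arrays. In AF, Defa25 was at 7.02, 6.47, 6.79 and 6.23 on cKO AF arrays, against 5.27, 5.52, 5.41 and 5.82 on fl/fl AF arrays, and genotypes did not overlap in either tissue. The difference was 0.96 ± 0.22 (SE; unadjusted p = 0.000282, limma), around group means of 6.61 ± 0.65 (cKO) and 5.81 ± 0.20 (fl/fl) in NP, and 6.62 ± 0.35 (cKO) and 5.50 ± 0.24 (fl/fl) in AF. Zc3h6, which encodes a CCCH zinc finger protein, was also separate in both tissues, at 4.77, 5.78, 4.97 and 5.13 on cKO NP arrays, against 4.11, 4.44, 2.98 and 4.49 on fl/fl NP arrays. In AF, Zc3h6 was at 5.39, 7.04, 5.6 and 5.75 on cKO AF arrays, against 4.92, 4.55, 5.17 and 5.12 on fl/fl AF arrays. Its group means were 5.16 ± 0.44 (cKO) and 4.01 ± 0.71 (fl/fl) in NP, and 5.95 ± 0.75 (cKO) and 4.94 ± 0.28 (fl/fl) in AF, with a difference of 1.08 ± 0.27, and only 3 arrays were over background.

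Adgrd1, an adhesion G protein-coupled receptor, had a difference of 1.74 ± 0.46 (SE), the largest of the 13 higher genes. Its signal was 10.5, 6.91, 10 and 6.47 on cKO NP arrays, against 6.89, 6.53, 6.47 and 7.5 on fl/fl NP arrays. In AF, Adgrd1 was at 8.68, 7.24, 7.62 and 7 on cKO AF arrays, against 5.75, 6.12, 5.84 and 5.39 on fl/fl AF arrays. In AF all cKO arrays were above all fl/fl arrays, while in NP arrays 1 and 3 of cKO lay far above and arrays 2 and 4 lay within the fl/fl range. Group means were 8.46 ± 2.06 (cKO) and 6.85 ± 0.47 (fl/fl) in NP, and 7.63 ± 0.74 (cKO) and 5.77 ± 0.30 (fl/fl) in AF. Without cKO NP arrays 1 and 3 the difference over both tissues was 1.06, and without all 4 divergent arrays it was 0.75.

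Fam133b and Rpn2 completed the 6 higher genes with the lowest p. Fam133b had group means of 5.74 ± 0.82 (cKO) and 4.60 ± 0.38 (fl/fl) in NP, and 6.28 ± 0.55 (cKO) and 5.37 ± 0.37 (fl/fl) in AF and a difference of 1.03 ± 0.27. Rpn2, ribophorin II of the oligosaccharyltransferase that puts N-glycans on nascent proteins in the ER, had 5.24 ± 0.62 (cKO) and 4.47 ± 0.29 (fl/fl) in NP, and 5.74 ± 0.63 (cKO) and 4.44 ± 0.23 (fl/fl) in AF, with a difference of 1.03 ± 0.25. Of its cKO NP arrays, numbers 1 and 3 were at 5.79 and 5.76 and numbers 2 and 4 at 4.66 and 4.75, against 4.07 to 4.76 in fl/fl NP, so that the separation was complete only in AF.

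Among genes lower in cKO, Anxa8 showed the largest difference of the 23. It encodes an annexin, a calcium-dependent phospholipid-binding protein, and was over background on all 16 arrays. Its signal was 6.72, 6.13, 6.78 and 5.34 on cKO NP arrays, against 7.39, 6.39, 9.23 and 8.8 on fl/fl NP arrays. In AF, Anxa8 was at 7.47, 7.25, 6.6 and 7.94 on cKO AF arrays, against 7.69, 11.9, 9.19 and 8.82 on fl/fl AF arrays. The genotypes met at array 2 of fl/fl NP and at arrays 1 of fl/fl AF and 4 of cKO AF. The difference was -1.90 (95% confidence interval -2.91 to -0.89, unadjusted p = 0.000859, limma), and group means were 6.24 ± 0.67 (cKO) and 7.95 ± 1.30 (fl/fl) in NP, and 7.32 ± 0.56 (cKO) and 9.40 ± 1.78 (fl/fl) in AF.

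Ppp1r11 encodes an inhibitor of protein phosphatase 1. Its signal was 5.24, 5.46, 5.46 and 5.43 on cKO NP arrays, against 6.49, 6.79, 6.8 and 6.08 on fl/fl NP arrays. In AF, Ppp1r11 was at 5.31, 6.32, 6.07 and 6.3 on cKO AF arrays, against 6.54, 7.83, 5.75 and 7.85 on fl/fl AF arrays. All 4 cKO NP arrays were below all fl/fl NP arrays, whereas in AF array 3 of fl/fl lay among the cKO arrays. The difference was -1.07 ± 0.28 (SE), around group means of 5.40 ± 0.10 (cKO) and 6.54 ± 0.34 (fl/fl) in NP, and 6.0 ± 0.47 (cKO) and 6.99 ± 1.03 (fl/fl) in AF. Klre1, a lectin-like receptor of natural killer cells, had the smallest SE of the 23 genes and no overlap in either tissue, at 4.36, 4.71, 4.75 and 5.03 on cKO NP arrays, against 5.16, 5.33, 5.47 and 5.31 on fl/fl NP arrays. In AF, Klre1 was at 5.1, 4.89, 4.96 and 4.88 on cKO AF arrays, against 5.73, 5.69, 5.72 and 5.51 on fl/fl AF arrays. Its difference was -0.65 ± 0.17, and 3 of 16 arrays were over background.

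Il17rc, a subunit of the interleukin-17 receptor, had group means of 4.53 ± 0.22 (cKO) and 5.35 ± 0.51 (fl/fl) in NP, and 5.78 ± 0.58 (cKO) and 6.48 ± 0.18 (fl/fl) in AF and a difference of -0.75 ± 0.22. The mitochondrial pyrophosphatase Ppa2 had 3.83 ± 0.32 (cKO) and 4.57 ± 0.33 (fl/fl) in NP, and 4.08 ± 0.58 (cKO) and 4.79 ± 0.41 (fl/fl) in AF, with a difference of -0.73 ± 0.22, and no array was over background. The zinc finger gene Zfp184 had 3.95 ± 0.11 (cKO) and 4.71 ± 0.23 (fl/fl) in NP, and 4.69 ± 0.58 (cKO) and 5.42 ± 0.52 (fl/fl) in AF, with a difference of -0.74 ± 0.22. These 3 genes were lower in cKO in NP by 0.75 to 0.81 and in AF by 0.69 to 0.73.

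**Figure D3:**
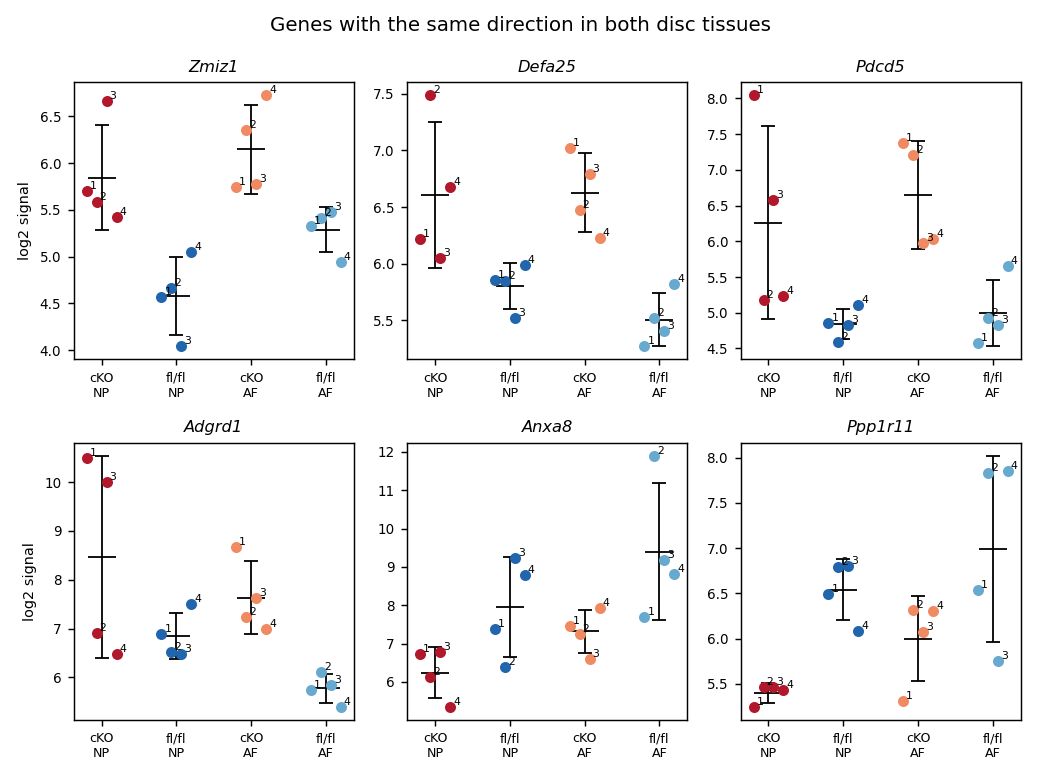
Log2 signal (y axis) of 6 genes on each array (points, numbered by replicate) for cKO NP, fl/fl NP, cKO AF and fl/fl AF; bars give mean and SD of 4 arrays. For Zmiz1, Defa25 and Pdcd5 no cKO array falls below a fl/fl array of its tissue, while for Adgrd1 cKO NP arrays 1 and 3 stand above every other NP array, and for Anxa8 and Ppp1r11 the genotypes overlap in AF.

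The other 10 genes of the 23 were named after their values were seen. Higher in both tissues were Clic3 (0.70), Zfp109 (0.92), St7 (0.70), 6720489N17Rik (0.90), Stfa1 (0.58) and Ankrd50 (0.74). Clic3 is a chloride intracellular channel family member, Stfa1 a cysteine protease inhibitor with close copies, and Ankrd50 a protein of endosomal recycling. Lower in both were Mageb16 (-0.71), Apcs (-0.92), the serum amyloid P component, A930018P22Rik (-0.71) and BC051665 (-0.72). Without the divergent arrays the difference of 6720489N17Rik was 0.45 and that of Ankrd50 0.43. Of these only St7 was over background on more than 3 arrays. Its signal was 6.25, 6.11, 6.37 and 5.92 on cKO NP arrays, against 5.64, 5.63, 5.84 and 5.01 on fl/fl NP arrays. In AF, St7 was at 7.85, 7.04, 7.67 and 7.53 on cKO AF arrays, against 6.53, 6.57, 7.42 and 6.47 on fl/fl AF arrays, and its group means were 6.16 ± 0.19 (cKO) and 5.53 ± 0.36 (fl/fl) in NP, and 7.52 ± 0.35 (cKO) and 6.75 ± 0.45 (fl/fl) in AF.

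Complete separation of the genotypes in both tissues was rarer than a low p. With 4 against 4 arrays some genes separate by label order alone. That number was not computed, so the counts given here cannot be said to exceed it. Of 16665 genes tested, no overlap in NP was found for 468 genes and in AF for 435. Both tissues had it in the same direction for 8 genes higher (0.048%) and 3 genes lower in cKO (0.018%), and 5 genes had it with opposite signs. The 8 higher genes were Zmiz1, Defa25, Pdcd5, Zc3h6, Stfa1, Hjurp, the chaperone of the centromeric histone CENP-A, Egln2, a HIF prolyl hydroxylase, and Lifr, the receptor of leukemia inhibitory factor. Egln2 had group means of 5.16 ± 0.67 (cKO) and 4.33 ± 0.06 (fl/fl) in NP, and 4.38 ± 0.20 (cKO) and 3.72 ± 0.41 (fl/fl) in AF, with a difference of 0.75 ± 0.22. Hjurp was 1.52 in AF and 0.42 in NP (interaction in limma, adjusted p = 0.988). Its group means were 5.17 ± 0.15 (cKO) and 4.74 ± 0.14 (fl/fl) in NP, and 6.29 ± 0.80 (cKO) and 4.77 ± 0.63 (fl/fl) in AF. Lifr had group means of 5.02 ± 0.43 (cKO) and 4.4 ± 0.21 (fl/fl) in NP, and 5.16 ± 0.56 (cKO) and 4.30 ± 0.36 (fl/fl) in AF, with a difference of 0.74 ± 0.22. The 3 lower genes were Klre1, Snrnp48, a component of the minor spliceosome, and Slc12a1, a sodium, potassium and chloride cotransporter best known from kidney. Snrnp48 was over background on 15 arrays, with group means of 5.83 ± 0.28 (cKO) and 6.20 ± 0.09 (fl/fl) in NP, and 6.29 ± 0.70 (cKO) and 7.48 ± 0.78 (fl/fl) in AF.

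Promoter sequence was looked at for the 23 genes because they differed alike in both tissues. RefSeq windows of 300 bases around a gene start, in mouse build GRCm38.p6, were found for 21 of the 23 genes (11 of the 13 higher and all 10 lower), using the first start listed for a gene. The CCAAT box (CCAAT, both strands) was in 7 of the 11 promoters of genes higher in both tissues (63.6%) and in 3 of the 10 of genes lower in both (30%), against 38.9% of 13435 promoters of tested genes. The hypoxia response core ACGTG was in 3 of 11 and in 0 of 10, against 21.6%, and the E-box CACGTG, which contains it, was in 1 of 11 and 0 of 10, against 8.34%. The GC box GGGCGG was in 5 of 11 and 4 of 10, against 47.9%, and TATAAA was in 1 of 11 and 1 of 10, against 13%. A kB motif was in none of the 21 and in 0.357% of promoters of tested genes. With so few promoters these are descriptions only. Zmiz1 and Rpn2 are shown as promoters with CCAAT or its reverse complement in capitals, and Pdcd5 as one without it. They lie at chr14:25458935-25459234 on the + strand, chr2:157278848-157279147 on the + strand and chr7:35647433-35647732 on the - strand, each printed 5′ to 3′ along the gene.
Zmiz1: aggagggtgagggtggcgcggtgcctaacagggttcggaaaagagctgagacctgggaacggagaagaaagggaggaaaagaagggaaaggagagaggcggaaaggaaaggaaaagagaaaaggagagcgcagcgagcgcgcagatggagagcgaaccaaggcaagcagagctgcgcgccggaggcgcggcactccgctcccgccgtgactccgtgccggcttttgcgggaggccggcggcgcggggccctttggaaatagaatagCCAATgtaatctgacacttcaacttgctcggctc
Rpn2: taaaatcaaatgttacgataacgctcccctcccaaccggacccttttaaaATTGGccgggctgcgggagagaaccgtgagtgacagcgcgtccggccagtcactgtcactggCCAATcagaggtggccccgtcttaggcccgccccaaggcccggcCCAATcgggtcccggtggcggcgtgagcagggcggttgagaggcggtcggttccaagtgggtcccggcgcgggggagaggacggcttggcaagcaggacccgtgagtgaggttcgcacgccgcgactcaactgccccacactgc
Pdcd5: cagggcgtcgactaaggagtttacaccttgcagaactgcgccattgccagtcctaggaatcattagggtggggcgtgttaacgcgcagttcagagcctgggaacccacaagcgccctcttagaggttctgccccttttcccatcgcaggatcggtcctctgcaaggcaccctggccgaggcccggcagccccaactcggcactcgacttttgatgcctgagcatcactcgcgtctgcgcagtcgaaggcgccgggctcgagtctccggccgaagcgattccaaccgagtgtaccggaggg

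Among genes over background on 8 or more arrays, those with the next lowest p follow. Prpf31, a splicing factor of the U4/U6 particle, had group means of 5.75 ± 0.38 (cKO) and 5.21 ± 0.32 (fl/fl) in NP, and 7.16 ± 0.51 (cKO) and 5.78 ± 0.54 (fl/fl) in AF, and its difference was 0.53 in NP and 1.38 in AF. Tmem165, a Golgi membrane protein needed for glycosylation, had group means of 6.98 ± 0.63 (cKO) and 6.40 ± 0.26 (fl/fl) in NP, and 6.01 ± 0.81 (cKO) and 4.60 ± 0.42 (fl/fl) in AF, with 0.58 in NP and 1.4 in AF. Dnajc15, a mitochondrial J-domain protein, had group means of 5.44 ± 0.38 (cKO) and 4.97 ± 0.30 (fl/fl) in NP, and 6.78 ± 0.15 (cKO) and 5.58 ± 0.77 (fl/fl) in AF, with 0.48 in NP and 1.20 in AF. Snx15, an endosomal sorting nexin, had group means of 6.48 ± 1.10 (cKO) and 5.17 ± 0.29 (fl/fl) in NP, and 6.63 ± 0.63 (cKO) and 5.78 ± 0.46 (fl/fl) in AF. Its 4 cKO NP arrays were at 7.28, 5.51, 7.58 and 5.55, against 5.42, 5.27, 5.25 and 4.75 in fl/fl NP. The difference was 1.08 over all arrays and 0.49 without the divergent arrays. Zfp992 had an additive difference of 1.44, with 0.48 in NP and 2.39 in AF (interaction in limma, adjusted p = 0.988). Its group means were 5.51 ± 0.43 (cKO) and 5.03 ± 0.82 (fl/fl) in NP, and 8.40 ± 0.83 (cKO) and 6.01 ± 1.18 (fl/fl) in AF.

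Genes lower in cKO and over background had wide spreads. Nap1l1, a histone chaperone, had a signal of 11.3, 7.75, 10.9 and 8.38 on cKO NP arrays, against 11.3, 10.4, 11.2 and 12.6 on fl/fl NP arrays. In AF, Nap1l1 was at 6.14, 9.72, 8 and 7.57 on cKO AF arrays, against 10.9, 13.2, 6.98 and 11.2 on fl/fl AF arrays. In NP arrays 2 and 4 of cKO were low while arrays 1 and 3 lay in the fl/fl range, and in AF array 3 of fl/fl lay among the cKO arrays. The difference was -2.26 ± 0.72 (SE), around group means of 9.58 ± 1.78 (cKO) and 11.39 ± 0.91 (fl/fl) in NP, and 7.86 ± 1.47 (cKO) and 10.57 ± 2.6 (fl/fl) in AF. The membrane reductase Cyb5r3 had group means of 7.42 ± 2.18 (cKO) and 8.77 ± 1.35 (fl/fl) in NP, and 6.42 ± 1.44 (cKO) and 9.20 ± 1.37 (fl/fl) in AF and a difference of -2.07 ± 0.66. Sbsn, suprabasin of differentiating epidermis, had group means of 7.92 ± 1.23 (cKO) and 9.09 ± 1.90 (fl/fl) in NP, and 6.77 ± 1.69 (cKO) and 10.11 ± 2.50 (fl/fl) in AF and a difference of -2.26 ± 0.78. Arrays 4 of fl/fl NP and 1 and 4 of fl/fl AF held its 3 highest levels (11.9, 12.6 and 11.9).

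Gstm1, a glutathione S-transferase, had group means of 5.53 ± 0.91 (cKO) and 7.05 ± 0.73 (fl/fl) in NP, and 4.76 ± 0.53 (cKO) and 5.46 ± 0.89 (fl/fl) in AF and a difference of -1.11 ± 0.35. The calcium-binding S100a4 had 4.86 ± 0.87 (cKO) and 6.06 ± 0.64 (fl/fl) in NP, and 6.86 ± 0.95 (cKO) and 7.76 ± 1.12 (fl/fl) in AF, with a difference of -1.05 ± 0.39. The prenylated Rab acceptor Rabac1 had 5.16 ± 0.38 (cKO) and 5.87 ± 0.64 (fl/fl) in NP, and 6.61 ± 0.68 (cKO) and 7.55 ± 0.80 (fl/fl) in AF, with a difference of -0.82 ± 0.29. The remaining genes with the lowest p were at background on most arrays. Kdelr3, a receptor that returns ER proteins from the Golgi, differed by -0.87 ± 0.23, with means of 3.71 (cKO) and 4.31 (fl/fl) in NP and 3.86 (cKO) and 4.99 (fl/fl) in AF. Anln, anillin of the cytokinetic ring, differed by -0.90 ± 0.24, with means of 4.01 (cKO) and 5.16 (fl/fl) in NP and 4.12 (cKO) and 4.77 (fl/fl) in AF. Cnnm3, of a magnesium transport family, differed by -0.84 ± 0.22, with means of 4.07 (cKO) and 5.12 (fl/fl) in NP and 4.20 (cKO) and 4.84 (fl/fl) in AF. The ubiquitin ligase Wwp1 differed by -0.92 ± 0.25, with means of 4.38 (cKO) and 5.01 (fl/fl) in NP and 4.47 (cKO) and 5.67 (fl/fl) in AF.

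Of 13 genes whose proteins the study examined by staining or immunoblot, 12 were measured as RNA, and 7 of the 12 had the same sign in both tissues. Cdkn1a, the gene of p21 that halts the cell cycle, had a signal of 4.28, 4.41, 3.6 and 3.88 on cKO NP arrays, against 4.39, 4.52, 5.86 and 6.12 on fl/fl NP arrays. In AF, Cdkn1a was at 3.48, 3.67, 3.41 and 5.62 on cKO AF arrays, against 3.98, 4.53, 4.48 and 7.11 on fl/fl AF arrays. Levels over background were found only on arrays 3 and 4 of fl/fl NP and array 4 of fl/fl AF. The difference was -1.08 ± 0.42 (SE; unadjusted p = 0.0178, limma). Its group means were 4.04 ± 0.37 (cKO) and 5.22 ± 0.90 (fl/fl) in NP, and 4.05 ± 1.06 (cKO) and 5.03 ± 1.41 (fl/fl) in AF.

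Map1lc3b, a ubiquitin-like protein of autophagosome membranes, had a signal of 7.64, 3.65, 6.5 and 3.69 on cKO NP arrays, against 4.13, 4.18, 3.81 and 3.49 on fl/fl NP arrays. In AF, Map1lc3b was at 4.29, 4.75, 4.16 and 6.16 on cKO AF arrays, against 4.46, 4.25, 4.35 and 3.82 on fl/fl AF arrays. The 3 high arrays were cKO NP 1 and 3 and cKO AF 4. The difference was 1.04 ± 0.47 (unadjusted p = 0.0386, limma), and without the divergent arrays it was 0.00223 and without cKO NP 1 alone 0.66. Its group means were 5.37 ± 2.01 (cKO) and 3.90 ± 0.32 (fl/fl) in NP, and 4.84 ± 0.92 (cKO) and 4.22 ± 0.28 (fl/fl) in AF. Acan, the aggrecan gene that also drives the Cre, was high on the same 3 arrays, at 10.8, 7.32, 11.3 and 6.21 on cKO NP arrays, against 7.38, 7.13, 5.61 and 6.62 on fl/fl NP arrays. In AF, Acan was at 6.36, 6.08, 6.52 and 10.3 on cKO AF arrays, against 6.63, 6.62, 7.05 and 6.54 on fl/fl AF arrays. Its group means were 8.91 ± 2.53 (cKO) and 6.69 ± 0.78 (fl/fl) in NP, and 7.33 ± 2.02 (cKO) and 6.71 ± 0.23 (fl/fl) in AF. The difference was 1.42 ± 0.69 (unadjusted p = 0.0516, limma) over all arrays and -0.17 without the divergent arrays.

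None of the other genes of these proteins had an unadjusted p under 0.05 in the additive limma fit. Among the secreted factors, Il6 differed by -0.32 ± 0.27, with means of 3.85 (cKO) and 4.02 (fl/fl) in NP and 4.41 (cKO) and 4.89 (fl/fl) in AF, and it was not over background on any array. Il1b differed by 0.12 ± 0.30, with means of 5.44 (cKO) and 5.29 (fl/fl) in NP and 6.34 (cKO) and 6.25 (fl/fl) in AF. Tgfb1 differed by 0.03 ± 0.23, with means of 5.23 (cKO) and 5.0 (fl/fl) in NP and 4.31 (cKO) and 4.47 (fl/fl) in AF, and the chemokine Ccl2 by 0.31 ± 0.24, with means of 5.20 (cKO) and 4.79 (fl/fl) in NP and 4.80 (cKO) and 4.60 (fl/fl) in AF. Of the collagens, Col1a1 of fibrous matrix differed by 0.20 ± 0.30, with means of 5.48 (cKO) and 5.78 (fl/fl) in NP and 6.91 (cKO) and 6.21 (fl/fl) in AF. Col10a1, typical of hypertrophic chondrocytes, differed by -0.48 ± 0.32, with means of 4.52 (cKO) and 4.51 (fl/fl) in NP and 4.62 (cKO) and 5.60 (fl/fl) in AF. The autophagosome protein Map1lc3a differed by 0.01 ± 0.29, with means of 6.16 (cKO) and 6.03 (fl/fl) in NP and 6.44 (cKO) and 6.53 (fl/fl) in AF. The histone variant gene H2ax, whose phosphorylated form marks DNA breaks, differed by -0.13 ± 0.20, with means of 3.81 (cKO) and 4.03 (fl/fl) in NP and 4.69 (cKO) and 4.72 (fl/fl) in AF. Txnip, which responds to glucose, differed by -0.29 ± 0.93, with means of 7.87 (cKO) and 8.56 (fl/fl) in NP and 7.59 (cKO) and 7.48 (fl/fl) in AF, with single arrays from 5.07 to 11.9. Signs of Il1b, Tgfb1, Col1a1, Map1lc3a and Txnip turned when single arrays were left out.

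**Figure D4:**
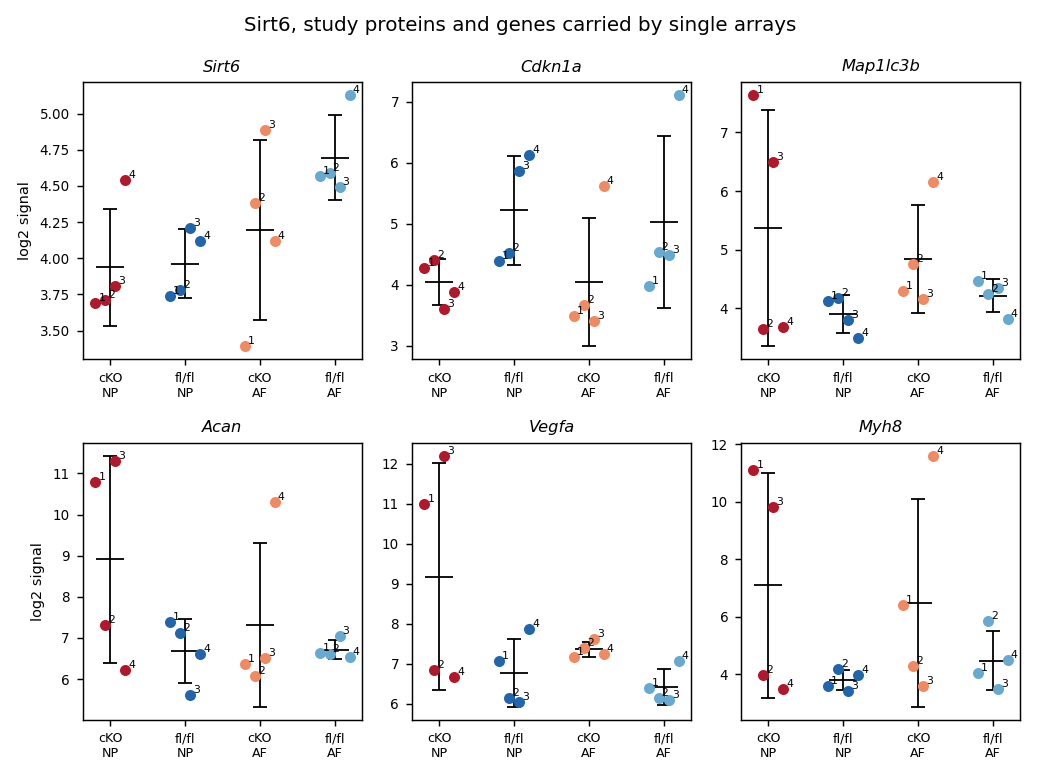
Log2 signal (y axis) of Sirt6, Cdkn1a, Map1lc3b, Acan, Vegfa and Myh8 on each array (points, numbered by replicate) for cKO NP, fl/fl NP, cKO AF and fl/fl AF; bars give mean and SD of 4 arrays. In Map1lc3b and Myh8 the arrays cKO NP 1, cKO NP 3 and cKO AF 4 stand above all others, as they do in Acan, and in Vegfa cKO NP 1 and 3 do.

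The 41 gene lists (28 of pathways and 13 of cell types) held no gene at an adjusted p under 0.05 in limma. Their medians of the additive difference ran from -0.21 to 0.32, beside -0.01 over all genes tested. Members past an unadjusted p of 0.05 are counted beside 2.56% higher and 2.53% lower over all genes, and no list was tested as a set. Of the 95 named genes at an unadjusted p under 0.05 in limma, 47 kept such a p in the fit of 12 arrays without the divergent arrays. Values after a gene are its additive difference ± SE and then its group means.

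Skeletal muscle genes gave the largest median. Of 34 measured, 6 were higher and 0 lower, 21 had the same sign in both tissues (18 of these higher), and the median difference was 0.32 (0.35 in NP and 0.28 in AF). The mean signal of the list was 5.7, 4.89, 5.68 and 4.57 on cKO NP arrays, against 4.77, 4.68, 4.69 and 4.58 on fl/fl NP arrays. In AF it was 5.03, 5.29, 5.07 and 6.63 on cKO arrays, against 4.99, 5.23, 5.14 and 5.28 on fl/fl arrays. It was highest on cKO AF array 4 and on cKO NP arrays 1 and 3. With the divergent arrays left out, 1 of the 34 genes was higher and the median was 0.03. Between 6 and 23 of the 34 genes were over background on a cKO array, against 5 to 8 on a fl/fl array. Myh8, a developmental myosin heavy chain, had a signal of 11.1, 3.98, 9.81 and 3.5 on cKO NP arrays, against 3.59, 4.18, 3.42 and 3.98 on fl/fl NP arrays. In AF, Myh8 was at 6.42, 4.31, 3.59 and 11.6 on cKO AF arrays, against 4.04, 5.87, 3.48 and 4.51 on fl/fl AF arrays. Its difference was 2.66 ± 1.07 (-0.29 without the divergent arrays), with means of 7.10 (cKO) and 3.79 (fl/fl) in NP and 6.48 (cKO) and 4.48 (fl/fl) in AF. Pygm, muscle glycogen phosphorylase, differed by 0.90 ± 0.34 (0.25 without the divergent arrays), with means of 6.51 (cKO) and 5.07 (fl/fl) in NP and 5.92 (cKO) and 5.56 (fl/fl) in AF. Tnnc2, fast troponin C, differed by 1.02 ± 0.40 (0.47 without the divergent arrays and 0.63 without cKO AF 4 alone), with means of 5.79 (cKO) and 5.13 (fl/fl) in NP and 6.55 (cKO) and 5.17 (fl/fl) in AF. The sarcomeric protein Myoz1 differed by 0.64 ± 0.26 (0.20 without the divergent arrays), with means of 5.72 (cKO) and 5.02 (fl/fl) in NP and 5.04 (cKO) and 4.46 (fl/fl) in AF. Levels varied within the list. Of the 34 genes, 6 were over background on 8 or more arrays, whereas Acta1 and Ckm were so on 1 and 2 of 16 arrays. The part of muscle RNA in these differences was not tested.

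Histone acetyltransferases add acetyl groups to histones. The list of that name also held genes that are not such enzymes, Ing1 and Ing5 among them. Of 23 genes 4 were higher and 0 lower, 16 had the same sign in both tissues, and the median was 0.14. Without the divergent arrays 1 was higher and the median was 0.18, and without cKO NP arrays 1 and 3 alone 1 was higher and the median was 0.02. The mean signal of the list was 5.2, 4.93, 5.12 and 4.96 on cKO NP arrays, against 4.94, 5.01, 4.87 and 4.79 on fl/fl NP arrays. In AF it was 4.86, 5.58, 5.21 and 5.52 on cKO arrays, against 5.06, 5.28, 5.22 and 5.15 on fl/fl arrays, so that cKO NP arrays 1 and 3 were again the highest in NP. Kat6b, a MYST family enzyme, differed by 0.92 ± 0.31 (0.18 without the divergent arrays), with means of 5.99 (cKO) and 4.86 (fl/fl) in NP and 4.84 (cKO) and 4.13 (fl/fl) in AF. Kat2a, the GCN5 enzyme of SAGA complexes, differed by 0.68 ± 0.24, with means of 4.69 (cKO) and 3.81 (fl/fl) in NP and 4.83 (cKO) and 4.34 (fl/fl) in AF. Ing1, a chromatin reader, differed by 0.75 ± 0.28, with means of 4.86 (cKO) and 4.16 (fl/fl) in NP and 5.24 (cKO) and 4.45 (fl/fl) in AF. Its relative Ing5 differed by 0.48 ± 0.19, with means of 4.44 (cKO) and 3.90 (fl/fl) in NP and 4.90 (cKO) and 4.48 (fl/fl) in AF. Levels were low, with 3 of the 23 genes over background on 8 or more arrays. Of 26 histone deacetylases and sirtuins none passed in either direction, and the median was -0.01.

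Cytosolic ribosomal proteins had the lowest median, -0.21 over both tissues (-0.13 in NP and -0.53 in AF). Of the 57 genes 2 were higher and 4 lower, and 37 had the same sign, 25 of them lower. With the divergent arrays left out, 18 were lower and 0 higher, and the median was -0.80. Without cKO NP arrays 1 and 3 alone, 14 were lower and the median was -0.68. Those arrays lay above cKO NP arrays 2 and 4 on this list, so leaving them out lowers the difference by that choice. Ribosomal protein genes have many near-identical pseudogenes, which makes single members uncertain. The mean of the list ran from 5.91 to 9.05 on cKO NP arrays, against 6.87 to 8.28 on fl/fl NP arrays. In AF it ran from 6.38 to 8.78 on cKO arrays, against 6.48 to 8.77 on fl/fl arrays. Rps23 of the small subunit differed by -1.86 ± 0.81, with means of 11.38 (cKO) and 13.20 (fl/fl) in NP and 11.40 (cKO) and 13.31 (fl/fl) in AF. Rps3a1 differed by -1.91 ± 0.76, with means of 6.35 (cKO) and 8.03 (fl/fl) in NP and 7.5 (cKO) and 9.63 (fl/fl) in AF, and Rps9 by -0.67 ± 0.29, with means of 4.03 (cKO) and 4.46 (fl/fl) in NP and 4.44 (cKO) and 5.34 (fl/fl) in AF. One on the other side was Rps28, which differed by 1.05 ± 0.42 (0.25 without the divergent arrays), with means of 8.47 (cKO) and 7.33 (fl/fl) in NP and 7.79 (cKO) and 6.83 (fl/fl) in AF.

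Vesicle traffic carries matrix proteins out of disc cells. In ER to Golgi transport 2 of 55 genes were higher and 2 lower, with a median of 0.04. Mia2, which loads large cargo at ER exit sites, differed by 0.93 ± 0.28, with means of 5.11 (cKO) and 4.29 (fl/fl) in NP and 5.80 (cKO) and 4.77 (fl/fl) in AF. Sar1a, the GTPase that starts COPII coats, differed by 0.68 ± 0.32 (0.13 without the divergent arrays and 0.43 without cKO AF 4 alone), with means of 5.54 (cKO) and 5.23 (fl/fl) in NP and 6.45 (cKO) and 5.42 (fl/fl) in AF. The coat subunit Sec31a differed by -0.80 ± 0.28, with means of 4.0 (cKO) and 4.52 (fl/fl) in NP and 4.54 (cKO) and 5.63 (fl/fl) in AF. In the ER chaperone list 2 of 30 were higher and 0 lower. These were Sel1l of ER-associated degradation, which differed by 0.87 ± 0.26, with means of 4.73 (cKO) and 4.08 (fl/fl) in NP and 5.57 (cKO) and 4.47 (fl/fl) in AF, and Herpud1 of the same pathway, which differed by 0.65 ± 0.30 (0.99 without the divergent arrays), with means of 4.83 (cKO) and 3.93 (fl/fl) in NP and 5.10 (cKO) and 4.70 (fl/fl) in AF. Of 44 secretory vesicle genes 2 were higher and 1 lower. Stxbp2, a Munc18 protein, differed by 1.23 ± 0.49 (0.30 without the divergent arrays), with means of 6.05 (cKO) and 4.60 (fl/fl) in NP and 5.94 (cKO) and 4.94 (fl/fl) in AF, and cKO NP 1 and 3 and cKO AF 4 were its 3 highest arrays. The prohormone convertase Pcsk1 differed by 0.57 ± 0.26 (0.27 without the divergent arrays), with means of 4.37 (cKO) and 4.32 (fl/fl) in NP and 5.67 (cKO) and 4.59 (fl/fl) in AF. Syt7, a calcium sensor of exocytosis, differed by -0.59 ± 0.20, with means of 4.37 (cKO) and 4.57 (fl/fl) in NP and 4.96 (cKO) and 5.94 (fl/fl) in AF.

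Endosome, lysosome and autophagy lists had genes on both sides. For endosome sorting the counts were 2 higher and 3 lower of 57. Fig4, a phosphoinositide phosphatase, differed by 0.67 ± 0.21, with means of 5.70 (cKO) and 5.22 (fl/fl) in NP and 5.62 (cKO) and 4.76 (fl/fl) in AF. The retromer subunit Vps26b differed by -0.68 ± 0.25, with means of 4.63 (cKO) and 5.53 (fl/fl) in NP and 5.76 (cKO) and 6.21 (fl/fl) in AF. Vps45, which acts with syntaxins, differed by -0.67 ± 0.26 (-0.32 without the divergent arrays), with means of 3.54 (cKO) and 4.70 (fl/fl) in NP and 4.34 (cKO) and 4.52 (fl/fl) in AF, and the ESCRT gene Chmp1b by -0.58 ± 0.23, with means of 5.06 (cKO) and 5.31 (fl/fl) in NP and 5.33 (cKO) and 6.24 (fl/fl) in AF. For the lysosome 1 was higher and 2 lower of 57. Lamp1, a major lysosomal membrane protein, differed by 1.12 ± 0.48 (0.19 without the divergent arrays), with means of 5.55 (cKO) and 3.86 (fl/fl) in NP and 5.78 (cKO) and 5.24 (fl/fl) in AF, with its highest levels on cKO NP 1, cKO NP 3 and cKO AF 4. Tfe3, a transcription factor of lysosomal genes, differed by -0.68 ± 0.25, with means of 4.10 (cKO) and 4.51 (fl/fl) in NP and 4.29 (cKO) and 5.25 (fl/fl) in AF. The protease Ctsl differed by -0.46 ± 0.20, with means of 4.49 (cKO) and 4.69 (fl/fl) in NP and 4.59 (cKO) and 5.31 (fl/fl) in AF. The autophagy list had 1 higher, Map1lc3b, and 2 lower of 34, with a median of 0.19. The cargo receptor Tax1bp1 differed by -0.66 ± 0.27, with means of 4.29 (cKO) and 4.97 (fl/fl) in NP and 4.94 (cKO) and 5.57 (fl/fl) in AF. Keap1, the sensor that binds NRF2, differed by -0.57 ± 0.27, with means of 4.60 (cKO) and 4.74 (fl/fl) in NP and 4.16 (cKO) and 5.15 (fl/fl) in AF.

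In ubiquitin conjugation 1 of 50 genes was higher and 2 lower. Ube2e3, a conjugating enzyme, had a signal of 10.4, 5.3, 9.86 and 4.85 on cKO NP arrays, against 4.95, 4.94, 5.38 and 5.35 on fl/fl NP arrays. In AF, Ube2e3 was at 5.77, 6.26, 6.62 and 8.38 on cKO AF arrays, against 5.73, 5.99, 6.35 and 6.17 on fl/fl AF arrays. The 3 highest of the 16 arrays were cKO NP 1 and 3 and cKO AF 4. Its difference was 1.57 ± 0.66 (0.15 without the divergent arrays), with means of 7.59 (cKO) and 5.16 (fl/fl) in NP and 6.76 (cKO) and 6.06 (fl/fl) in AF. Ube2g1 differed by -0.45 ± 0.21, with means of 4.16 (cKO) and 4.44 (fl/fl) in NP and 3.86 (cKO) and 4.47 (fl/fl) in AF. In the proteasome list 0 of 35 were higher and 2 lower, and 21 of 35 differences were negative. The core subunit Psma3 differed by -0.68 ± 0.26, with means of 4.09 (cKO) and 4.66 (fl/fl) in NP and 4.92 (cKO) and 5.72 (fl/fl) in AF, and the lid subunit Psmd6 by -0.65 ± 0.29, with means of 3.90 (cKO) and 4.66 (fl/fl) in NP and 4.66 (cKO) and 5.19 (fl/fl) in AF.

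Matrix lists held few such genes. Snorc, a cartilage transmembrane proteoglycan, was the 1 of 30 cartilage genes, and it differed by 1.02 ± 0.48 (0.25 without the divergent arrays), with means of 5.20 (cKO) and 4.45 (fl/fl) in NP and 5.69 (cKO) and 4.4 (fl/fl) in AF. P4ha2, a collagen prolyl hydroxylase subunit, was the 1 of 39 collagen and small proteoglycan genes, and it differed by 0.84 ± 0.30 (0.39 without the divergent arrays), with means of 5.13 (cKO) and 4.57 (fl/fl) in NP and 6.05 (cKO) and 4.93 (fl/fl) in AF. Of 28 matrix proteases and inhibitors 1 was higher and 2 lower. Mmp12, macrophage elastase, differed by 0.61 ± 0.24, with means of 4.99 (cKO) and 4.25 (fl/fl) in NP and 5.43 (cKO) and 4.94 (fl/fl) in AF. Mmp10, stromelysin 2, differed by -0.71 ± 0.23, with means of 3.77 (cKO) and 4.65 (fl/fl) in NP and 5.26 (cKO) and 5.80 (fl/fl) in AF. The serine protease Htra1 differed by -1.04 ± 0.46 (-1.69 without the divergent arrays), with means of 5.04 (cKO) and 6.02 (fl/fl) in NP and 4.52 (cKO) and 5.61 (fl/fl) in AF.

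Vegfa, the vascular growth factor counted among both hypoxia and senescence genes, had a signal of 11, 6.85, 12.2 and 6.67 on cKO NP arrays, against 7.06, 6.14, 6.04 and 7.86 on fl/fl NP arrays. In AF, Vegfa was at 7.18, 7.39, 7.62 and 7.25 on cKO AF arrays, against 6.39, 6.14, 6.09 and 7.06 on fl/fl AF arrays. Both high values belonged to cKO NP arrays 1 and 3, and in AF every cKO array was above every fl/fl array. The difference was 1.66 ± 0.62 (0.53 without the divergent arrays), with means of 9.16 (cKO) and 6.78 (fl/fl) in NP and 7.36 (cKO) and 6.42 (fl/fl) in AF. Among 39 glycolysis and hypoxia genes Vegfa and Egln2 were higher and 2 were lower, and without the divergent arrays 2 were higher and 6 lower. Pfkm, a phosphofructokinase, differed by -0.54 ± 0.21, with means of 5.02 (cKO) and 5.47 (fl/fl) in NP and 6.20 (cKO) and 6.83 (fl/fl) in AF. Tpi1, triosephosphate isomerase, differed by -1.10 ± 0.52 (-1.91 without the divergent arrays), with means of 6.45 (cKO) and 7.72 (fl/fl) in NP and 6.39 (cKO) and 7.32 (fl/fl) in AF. In the list of cell cycle inhibitors and p53 targets, 19 of 25 genes (76%) had the same sign in both tissues, 7 higher and 12 lower, beside 51.3% of all genes. Aen, a p53-induced nuclease, differed by 0.59 ± 0.19, with means of 4.82 (cKO) and 4.36 (fl/fl) in NP and 5.59 (cKO) and 4.87 (fl/fl) in AF. The chromatin protein Hmgb1 differed by 1.24 ± 0.50 (0.61 without the divergent arrays and 0.83 without cKO AF 1 alone), with means of 7.27 (cKO) and 6.83 (fl/fl) in NP and 9.16 (cKO) and 7.12 (fl/fl) in AF, and its cKO AF array 1 was at 11.5 with the other cKO AF arrays between 8.29 and 8.46. DNA repair had 2 of 51 genes higher and 1 lower. Mdc1, which binds marked breaks, differed by 0.67 ± 0.29, with means of 6.10 (cKO) and 5.25 (fl/fl) in NP and 6.22 (cKO) and 5.74 (fl/fl) in AF. Brca2 of homologous recombination differed by 0.57 ± 0.26 (0.26 without the divergent arrays), with means of 5.30 (cKO) and 5.03 (fl/fl) in NP and 5.88 (cKO) and 5.01 (fl/fl) in AF. Prkdc, the kinase of end joining, differed by -0.44 ± 0.20, with means of 3.77 (cKO) and 4.19 (fl/fl) in NP and 4.29 (cKO) and 4.76 (fl/fl) in AF. Of 26 NF-kB genes none passed, and the median was 0.02.

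Respiratory genes had 2 of 69 higher and 3 lower. Cytochrome c (Cycs) was over background on all 16 arrays and differed by 1.17 ± 0.36 (0.48 without the divergent arrays), with means of 7.05 (cKO) and 6.06 (fl/fl) in NP and 8.99 (cKO) and 7.63 (fl/fl) in AF. The ATP synthase gene Atp5b differed by -1.14 ± 0.37, with means of 4.74 (cKO) and 5.34 (fl/fl) in NP and 4.38 (cKO) and 6.07 (fl/fl) in AF, and Atp5g2 by -0.61 ± 0.28 (-1.03 without the divergent arrays), with means of 3.97 (cKO) and 4.66 (fl/fl) in NP and 4.93 (cKO) and 5.45 (fl/fl) in AF. The complex I gene Ndufa9 differed by -0.97 ± 0.34, with means of 4.72 (cKO) and 5.30 (fl/fl) in NP and 4.70 (cKO) and 6.07 (fl/fl) in AF. In the actin list 1 of 48 was higher and 3 lower. Myo9b, an unconventional myosin, differed by 0.46 ± 0.22 (0.18 without the divergent arrays), with means of 7.56 (cKO) and 6.90 (fl/fl) in NP and 7.55 (cKO) and 7.29 (fl/fl) in AF, and Myo1e by -0.92 ± 0.30, with means of 3.94 (cKO) and 4.97 (fl/fl) in NP and 4.52 (cKO) and 5.34 (fl/fl) in AF. Filamin C (Flnc) differed by -0.44 ± 0.21, with means of 3.72 (cKO) and 3.94 (fl/fl) in NP and 4.45 (cKO) and 5.11 (fl/fl) in AF. Arpc2 of the ARP2/3 complex differed by -1.02 ± 0.49, with means of 5.34 (cKO) and 5.84 (fl/fl) in NP and 5.53 (cKO) and 7.07 (fl/fl) in AF. Of 50 microtubule genes only Tuba4a passed, and it differed by -0.53 ± 0.23, with means of 4.02 (cKO) and 4.39 (fl/fl) in NP and 4.35 (cKO) and 5.03 (fl/fl) in AF. In growth factor signalling the insulin receptor substrate Irs1 differed by -0.67 ± 0.29 (-0.44 without fl/fl AF 1), with means of 4.02 (cKO) and 4.13 (fl/fl) in NP and 3.96 (cKO) and 5.20 (fl/fl) in AF. The BMP antagonist Chrd differed by 0.57 ± 0.24 (0.21 without the divergent arrays), with means of 4.70 (cKO) and 4.11 (fl/fl) in NP and 5.23 (cKO) and 4.68 (fl/fl) in AF, and Smad4, the common partner of receptor SMADs, by -0.57 ± 0.27, with means of 5.02 (cKO) and 5.13 (fl/fl) in NP and 5.09 (cKO) and 6.13 (fl/fl) in AF. Without cKO NP arrays 1 and 3 the difference of Smad4 was -0.89.

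**Figure D5:**
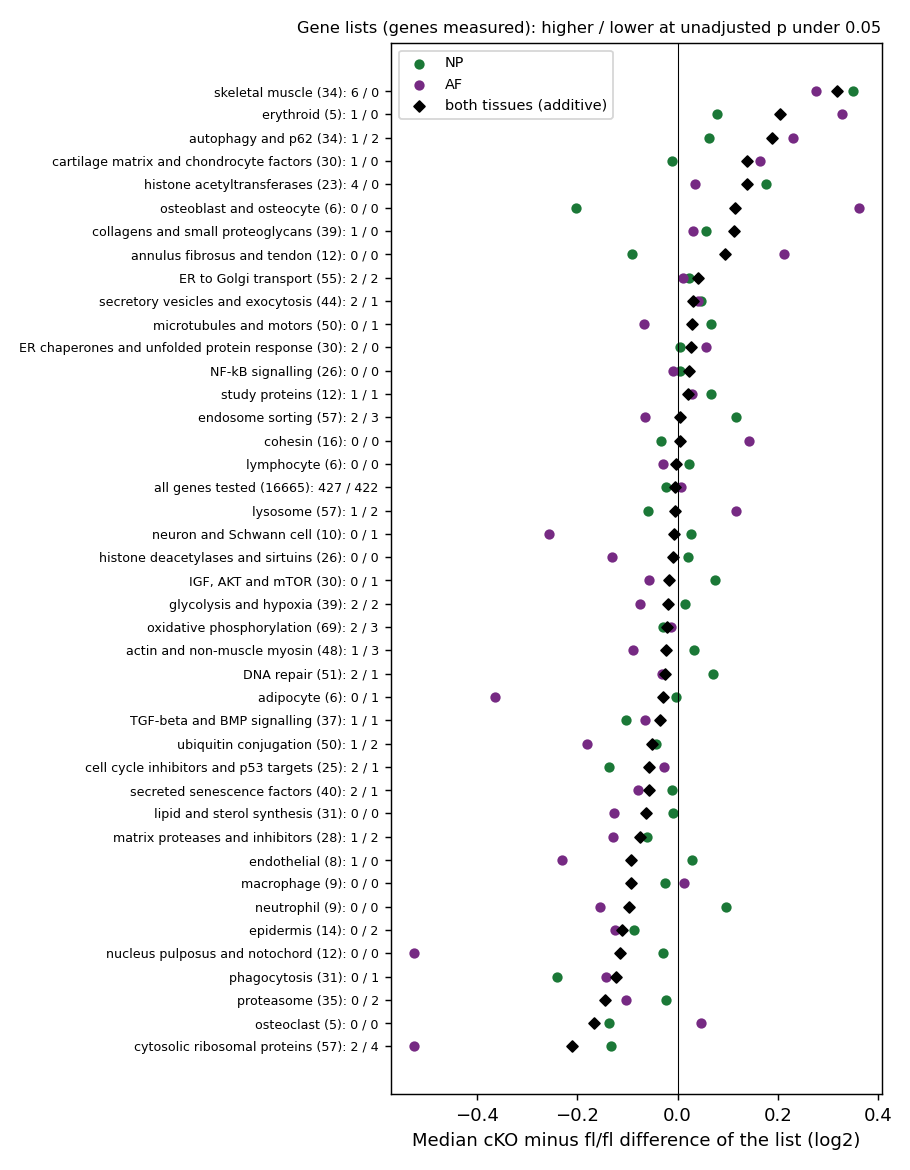
Median cKO minus fl/fl difference (x axis, log2) of each gene list in NP, in AF and over both tissues; each label gives the genes measured and, after the colon, how many with an unadjusted p under 0.05 were higher and how many lower. Skeletal muscle is at the top with 0.32 and cytosolic ribosomal proteins at the bottom with -0.21, while all genes tested sit at -0.01.

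Markers of other cell types were mostly at background. No macrophage, neutrophil, lymphocyte, osteoclast or osteoblast marker passed an unadjusted p of 0.05. Of 5 erythroid genes Slc4a1, the red cell anion exchanger, was the 1 that did, and it differed by 0.64 ± 0.29 (0.35 without the divergent arrays), with means of 5.26 (cKO) and 4.83 (fl/fl) in NP and 6.07 (cKO) and 5.23 (fl/fl) in AF. Of 8 endothelial genes it was Tie1, which differed by 0.57 ± 0.24, with means of 4.56 (cKO) and 4.38 (fl/fl) in NP and 5.44 (cKO) and 4.48 (fl/fl) in AF. The endothelial list as a whole went the other way, with 2 positive and 6 negative differences and a median of -0.09. Epidermal genes had 0 of 14 higher and 2 lower, Sbsn and the basal keratin Krt5, which differed by -0.72 ± 0.26, with means of 3.77 (cKO) and 4.53 (fl/fl) in NP and 4.39 (cKO) and 5.06 (fl/fl) in AF. Of the 14 epidermal genes 1 to 4 were over background on cKO AF arrays, against 3 to 7 on fl/fl AF arrays. Adipoq of fat cells differed by -0.61 ± 0.21, with means of 3.49 (cKO) and 3.77 (fl/fl) in NP and 4.43 (cKO) and 5.37 (fl/fl) in AF, and the neuronal filament gene Prph by -0.70 ± 0.33 (-0.45 without the divergent arrays and -0.43 without fl/fl AF 1 alone), with means of 4.41 (cKO) and 4.48 (fl/fl) in NP and 4.56 (cKO) and 5.89 (fl/fl) in AF. No nucleus pulposus or annulus marker passed in either direction, and their medians were -0.11 (12 genes) and 0.10 (12 genes). Without the divergent arrays 2 nucleus pulposus markers were lower and the medians were -0.58 and 0.26. Because cKO NP arrays 1 and 3 were picked as high on the nucleus pulposus markers, a lower nucleus pulposus median without them follows from that choice. The part of these cell types in the genotype differences was not tested.

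A genotype difference that itself differed between NP and AF was not found for any gene after adjustment (interaction in the limma fit of 4 groups, 0 of 16665, lowest adjusted p = 0.988). Without adjustment the interaction p was under 0.05 for 687 of 16665 genes, a count that this threshold can give without any interaction. The median SE of a difference over both tissues was 0.26, with 0.21 at the 10th and 0.36 at the 90th percentile of genes. These are errors of the additive difference and not of the interaction. Differences small beside them were not detectable with 16 arrays. Larger ones did not pass adjustment either, as with Zmiz1 (1.06 ± 0.23, SE; limma adjusted p = 0.914).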

How the data were processed

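NP and AF tissue of Sirt6 cKO and fl/fl mice was measured on Mouse Clariom S arrays, 4 per tissue and genotype, grouped by the labels. The authors labelled cDNA from total RNA with biotin and summarised the arrays by SST-RMA. Transcriptome Analysis Console is the tool in the processing notes of the submitters. Deposited signals are on the log2 scale and cover 28846 probe sets. Joint normalization of NP and AF was not given in the sources used here. Platform annotation gave 1 gene symbol to 19572 probe sets, all matched to RefSeq. Probe sets had to exceed their array's 40th percentile on 4 or more of 16 arrays, and the one with the highest mean was used per symbol, which left 16665 genes. Over background means at least 2-fold over the median of 23 background control probe sets on that array. Since the signals are intensities, the number of arrays limits precision.

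Genotypes were compared by linear models in limma 3.58.1 (R 4.3.3), with terms for genotype and tissue and moderated variances, with Benjamini-Hochberg adjustment over 16665 genes. A gene counted in both tissues if the larger of its NP and AF p-values, from 1 fit of 4 group means, was at most 0.05 with the same sign. Sirt6 was compared by an exact permutation test of 4900 arrangements within tissues. The fit was tested on simulated data. Named genes were Sirt6, genes of proteins the study examined by staining or immunoblot, and, in each direction, the 6 of lowest p among those past the fold threshold (0.81 on the log2 scale) with the same sign in both tissues, the 8 per direction among those over background on 8 or more arrays, the 6 per direction with the lowest larger p, and up to 4 members per list. Genes beyond these were chosen after their values were seen. Predicted genes were not named under this rule. Members, lists and alternatives were chosen with earlier results of these data known. Alternatives covered the filter, normalization, array weights, eBayes settings, unnamed probe sets, the replicate number as a block and leaving out arrays. Fitting each tissue by itself, and the gene lists and further genes without single or divergent arrays, were added after the data were seen. NP and AF arrays of 1 number and genotype did not deviate together (r from -0.142 to 0.062 across genes). This does not exclude that a number marks a mouse, but the labels do not say so, and the number was not used to pair arrays in the main fit. Figures were drawn with matplotlib 3.10.9.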

Additional observations from a re-analysis of the deposited data

Results flagged for a closer look

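In groups of 4 arrays, a single array lay far from the other 3 for 22 of 424 combinations of a named gene and a group (5.19%), where chance alone is set to give about 1 in 20. All are log2 signals. Array 4 of cKO AF held 4 of them, and arrays 1 of cKO AF, 3 of fl/fl AF and 4 of fl/fl AF held 3 each. Such values were Sirt6 on cKO NP array 4 (4.54, with the other 3 between 3.69 and 3.81), Cdkn1a on cKO AF array 4 (5.62, with the other 3 between 3.41 and 3.67), Acan on cKO AF array 4 (10.3, with the other 3 between 6.08 and 6.52) and Zfp992 on cKO AF array 3 (9.64, with the other 3 between 7.96 and 8.03). Others were Ppp1r11 on cKO NP array 1 (5.24, with the other 3 between 5.43 and 5.46), Lamp1 on cKO AF array 4 (8.38, with the other 3 between 4.56 and 5.21), Vps26b on cKO NP array 2 (3.79, with the other 3 between 4.85 and 5) and Psma3 on cKO AF array 1 (4.43, with the other 3 between 5.04 and 5.16). There were also Hmgb1 on cKO AF array 1 (11.5, with the other 3 between 8.29 and 8.46), Tnnc2 on cKO AF array 4 (8.93, with the other 3 between 5.71 and 5.79) and Adipoq on cKO AF array 1 (3.88, with the other 3 between 4.55 and 4.68).

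Among fl/fl arrays, such values were Sirt6 on fl/fl AF array 4 (5.13, with the other 3 between 4.49 and 4.59), Ccl2 on fl/fl AF array 4 (5.42, with the other 3 between 4.3 and 4.37), Gstm1 on fl/fl AF array 2 (6.79, with the other 3 between 4.93 and 5.08) and Sbsn on fl/fl NP array 4 (11.9, with the other 3 between 7.92 and 8.31). Others were Stxbp2 on fl/fl AF array 3 (4.02, with the other 3 between 5.17 and 5.34), Snorc on fl/fl AF array 2 (4.88, with the other 3 between 4.2 and 4.29), Fig4 on fl/fl AF array 4 (4.33, with the other 3 between 4.86 and 4.93) and Vps26b on fl/fl NP array 3 (6.48, with the other 3 between 5.17 and 5.26). There were also Kat2a on fl/fl AF array 3 (5.18, with the other 3 between 3.94 and 4.14), Rps23 on fl/fl AF array 3 (10.4, with the other 3 between 14 and 14.6) and Prph on fl/fl NP array 1 (5, with the other 3 between 4.27 and 4.33). Sirt6 was not over background on these arrays.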

How the results depend on the processing

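The count of genes at an adjusted p under 0.05 stayed at 0 in the additive limma fit under all 29 alternatives run for it, and at 0 for the larger p of both tissues under all alternatives run for that. Past the p and fold thresholds the additive fit gave 124 genes higher and 63 lower. Testing only genes over background on 8 or more arrays gave 45 higher and 20 lower, and 4 higher and 3 lower in both tissues, against 13 and 10, from 2742 genes tested. Lower genes numbered 99 after quantile normalization, 133 without cKO NP arrays 1 and 3, and 132 without those and cKO AF arrays 1 and 4. In both tissues, 5 genes were lower without cKO AF arrays 1 and 4. The cause was not tested. Leaving out 1 array at a time gave 95 to 220 genes higher and 58 to 111 lower in the additive fit, and 7 to 21 higher and 6 to 18 lower in both tissues. Counts moved by over 1.5 times without cKO NP 2 (207 higher), cKO NP 4 (220 higher), fl/fl AF 3 (111 lower in the additive fit, and 21 higher and 18 lower in both tissues), cKO NP 3 (7 higher in both tissues), cKO AF 3 (20 higher in both tissues) and cKO AF 4 (6 lower in both tissues). The Sirt6 difference ran from -0.38 to -0.13.

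By number the arrays did not deviate together, since 0 of 8 NP arrays correlated best with the AF array of their own number. This does not exclude that a number marks a mouse. With the replicate number as a random block the additive fit gave 125 genes higher and 64 lower, as a fixed term 128 and 64 (18 higher and 7 lower in both tissues), and by the mean of NP and AF 175 and 78. Sirt6 by mean was at -0.26 (exact permutation p = 0.314).

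Without all 4 divergent arrays (cKO NP 1 and 3 and cKO AF 1 and 4) the difference was over 1.5 times smaller or reversed for 31 of 105 named genes and over 1.5 times larger for 6. Among the strongest losses were Ube2e3 (0.15, against 1.57 over all arrays), Lamp1 (0.19, against 1.12), Kat6b (0.18, or 0.57 without cKO NP arrays 1 and 3 alone, against 0.92) and Sar1a (0.13, against 0.68). A single array moved 15 of the 105 by as much, among them Tnnc2 (0.63 without cKO AF 4), Irs1 (-0.44 without fl/fl AF 1) and Prph (-0.43 without fl/fl AF 1).

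The additive differences of 105 named genes kept their sign in 1287 of 1297 values under alternatives other than leaving out 1 array. Most of these genes were named for a low p in the same arrays, which favours a kept sign, so this is no separate evidence. Reversed values were those of Map1lc3a after quantile normalization (-0.0548), without cKO NP arrays 1 and 3 (-0.17) and without all 4 divergent arrays (-0.0268), of Tgfb1 without cKO NP arrays 1 and 3 (-0.0723), without cKO AF arrays 1 and 4 (-0.0436) and without all 4 (-0.19), of Col1a1 without cKO AF arrays 1 and 4 (-0.16) and without all 4 (-0.0947), and, without all 4, of Acan (-0.17) and Myh8 (-0.29). Leaving out 1 array gave -0.0869 to 0.275 for Il1b, -0.0798 to 0.137 for Tgfb1, -0.0246 to 0.342 for Col1a1, -0.14 to 0.20 for Map1lc3a and -0.66 to 0.36 for Txnip.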

Other observations

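Gfi1b, Asb15, Tet3, Nccrp1 and Mzt2 had genotypes that did not overlap in either tissue but with opposite signs, and were chosen after their values were seen. Gfi1b, a repressor of erythroid and megakaryocyte genes, had 4.64, 4.3, 4.65 and 4.23 on cKO NP arrays, against 5.08, 5.14, 4.83 and 5.08 on fl/fl NP arrays, and 6.15, 6.69, 5.7 and 6.12 on cKO AF arrays, against 4.79, 4.83, 5.18 and 4.65 on fl/fl AF arrays. Its unadjusted interaction p was 8.5e-05 in the limma fit, and no gene passed after adjustment. Tet3, an enzyme that oxidises methylcytosine in DNA, differed by 0.53 in NP and by -0.51 in AF. It was over background on 13 of 16 arrays. Asb15 differed by -0.88 in NP and 0.64 in AF, Nccrp1 by 0.56 in NP and -0.77 in AF, and Mzt2 by -0.34 in NP and 0.49 in AF.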
